A study of Mus musculus with 6 samples.

Results

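This account covers Trp53, the mouse gene of the tumour suppressor p53, and 9 of its direct target genes, Cdkn1a, Mdm2, Ccng1, Aen, Bbc3, Bax, Zmat3, Sesn1 and Phlda3, in mouse tongue. They were chosen by name, and every probe whose accession belongs to 1 of the 10 genes was taken, which gave 12 of the 55681 probes on the array. The 10 genes are among 21368 named genes on the array, each had at least 1 probe, and all 12 probes were well above background on every array. RNA was measured in tongues of C57Bl6 iDek mice, whose transgene makes Dek inducible by doxycycline (DOX) and is labelled both ubiquitous and squamous cell-specific. The tested animals were 3 mice given DOX for 2 weeks, and they were set against 3 mice of the same genotype that were left untreated. All 6 animals carried the transgene, and mice without it that were given DOX were not analysed here, so an effect of DOX itself cannot be told apart from one of Dek. The labels name neither the promoters that drive the transgene nor the animals' ages. The series title speaks of a carcinogen, and the sample labels name none.

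The p53 protein is a transcription factor that binds DNA as a tetramer and switches on genes of cell cycle arrest, DNA repair and apoptosis after DNA damage and other stresses. Its amount is set mainly by how fast it is degraded, through the ubiquitin ligase Mdm2, which is itself a p53 target, so that the pair form a feedback loop. Because this control acts on the protein, the level of Trp53 mRNA is not a measure of p53 activity, and the targets are commonly read in its place. Dek is a chromatin protein that has been reported to restrain p53, and in stratified epithelium p53 shares its DNA motif with its relative p63, the product of Trp63.

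The promoters of the genes that the results turn on are shown as RefSeq sequence of build GRCm38.p6. Each window runs from 250 bases before to 50 bases after an annotated start. Of the 10 genes, 9 had at least 1 such window and Zmat3 had none, with 14 windows in all. Capitals mark matches to the 10-base p53 consensus unit, which reads the same on both strands, and, in Cdkn1a, the neighbour that adjoins one. A full p53 response element holds a pair of such units, and the Aen, Sesn1 and Mdm2 windows hold a single one. The Aen window lies at chr7:78895677-78895976 on the plus strand and the Bbc3 window at chr7:16309333-16309632 on the plus strand. The Sesn1 window lies at chr10:41887189-41887488 on the plus strand, the Cdkn1a window at chr17:29090729-29091028 on the plus strand and the Mdm2 window at chr10:117710709-117711008 on the minus strand. Aen, Bbc3 and Sesn1 are shown because their DOX and no DOX arrays did not overlap, and Cdkn1a and Mdm2 because they are the targets most used to read p53.
Aen: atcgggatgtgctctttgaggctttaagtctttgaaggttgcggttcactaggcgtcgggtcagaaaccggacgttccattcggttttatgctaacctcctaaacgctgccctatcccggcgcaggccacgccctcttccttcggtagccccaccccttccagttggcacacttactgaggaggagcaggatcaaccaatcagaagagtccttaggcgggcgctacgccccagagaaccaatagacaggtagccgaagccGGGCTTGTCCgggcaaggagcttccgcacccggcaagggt
Bbc3: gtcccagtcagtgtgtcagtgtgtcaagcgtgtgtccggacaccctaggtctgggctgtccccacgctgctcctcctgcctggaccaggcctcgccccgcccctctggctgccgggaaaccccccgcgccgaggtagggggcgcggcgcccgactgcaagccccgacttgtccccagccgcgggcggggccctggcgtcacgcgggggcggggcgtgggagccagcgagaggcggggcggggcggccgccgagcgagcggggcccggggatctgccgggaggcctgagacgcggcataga
Sesn1: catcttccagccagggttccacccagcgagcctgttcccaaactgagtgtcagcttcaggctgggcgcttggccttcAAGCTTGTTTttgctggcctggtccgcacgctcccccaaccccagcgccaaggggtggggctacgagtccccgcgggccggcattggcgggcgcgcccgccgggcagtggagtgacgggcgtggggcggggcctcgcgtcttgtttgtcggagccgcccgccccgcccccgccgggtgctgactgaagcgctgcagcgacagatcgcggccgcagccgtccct
Cdkn1a: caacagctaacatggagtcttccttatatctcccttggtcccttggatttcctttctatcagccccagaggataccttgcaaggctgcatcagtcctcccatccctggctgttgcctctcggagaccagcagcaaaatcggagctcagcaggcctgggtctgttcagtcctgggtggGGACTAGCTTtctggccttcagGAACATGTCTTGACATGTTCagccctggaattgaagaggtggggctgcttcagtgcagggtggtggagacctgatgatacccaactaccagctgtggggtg
Mdm2: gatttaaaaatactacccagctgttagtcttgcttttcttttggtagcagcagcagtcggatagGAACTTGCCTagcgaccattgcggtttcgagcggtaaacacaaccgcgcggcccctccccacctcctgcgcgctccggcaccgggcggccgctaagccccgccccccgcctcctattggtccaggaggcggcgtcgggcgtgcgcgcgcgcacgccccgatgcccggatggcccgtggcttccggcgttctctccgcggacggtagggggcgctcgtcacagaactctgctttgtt

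At least 1 exact consensus unit was found in 8 of the 14 windows, which belong to 7 of the 9 genes (Trp53, Cdkn1a, Mdm2, Ccng1, Aen, Bax and Sesn1). Among all 32851 promoter windows of the same length, 8.36% held such a unit. Counted by gene, 9.55% of the 27025 genes with a window held one. Cdkn1a has 2 windows that do not overlap, and the second lies downstream at chr17:29093519-29093818. Which of its transcripts starts in which window is not given here. The window shown is the first. In it the unit GAACATGTCT, 51 bases before its annotated start, adjoined a neighbour to give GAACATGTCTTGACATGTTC, which departs from the doubled consensus at 1 position. Ccng1 held the only other such doubled run among the 14 windows, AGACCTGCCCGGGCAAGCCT, and 0.0883% of all windows held one. No consensus unit was found in the 3 Bbc3 windows, the Phlda3 window, the second Cdkn1a window or the first of 2 Sesn1 windows. This says only that these letters are not in those windows. The Sesn1 window shown is its second. Aen has overlapping windows for its 2 starts, and both hold the unit GGGCTTGTCC.

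None of the 12 probes passed the test, in either direction. Groups were compared with limma, with Benjamini-Hochberg adjustment over all 30920 probes tested and a threshold of 0.05 on the adjusted p. Over all probes 0.401% passed, 0.278% higher and 0.123% lower with DOX. At an unadjusted p under 0.05 there were 4 member probes of 3 genes, Aen higher and Bbc3 and Sesn1 lower with DOX, and 18.8% of all probes were under that value, 9.14% higher and 9.62% lower. The same 4 probes had 3 DOX values on 1 side of the 3 no DOX values, as did 25.5% of all probes (12.8% with DOX above and 12.7% with DOX below). With the brightest probe standing for each gene, the DOX mean was the higher in 7 of the 10 and the lower in 3, where 48.9% of all genes and unnamed probes had the higher mean with DOX. The median log2 difference was 0.04 over the 10 genes and -0.01 over all 26246 genes and unnamed probes. The median size of the difference, without its sign, was 0.15 over the 10 genes and 0.18 over all. Probe levels below are normalised log2 signals, the log2 signal minus the 75th percentile of its array, and levels of different probes are not comparable. Differences are DOX minus no DOX on the same log2 scale. Each array stands for 1 mouse per the series' design text, with n = 3 and 3 throughout, and the exact permutation p given below, two-sided over 20 assignments, cannot be under 0.1.

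**Figure D1:**
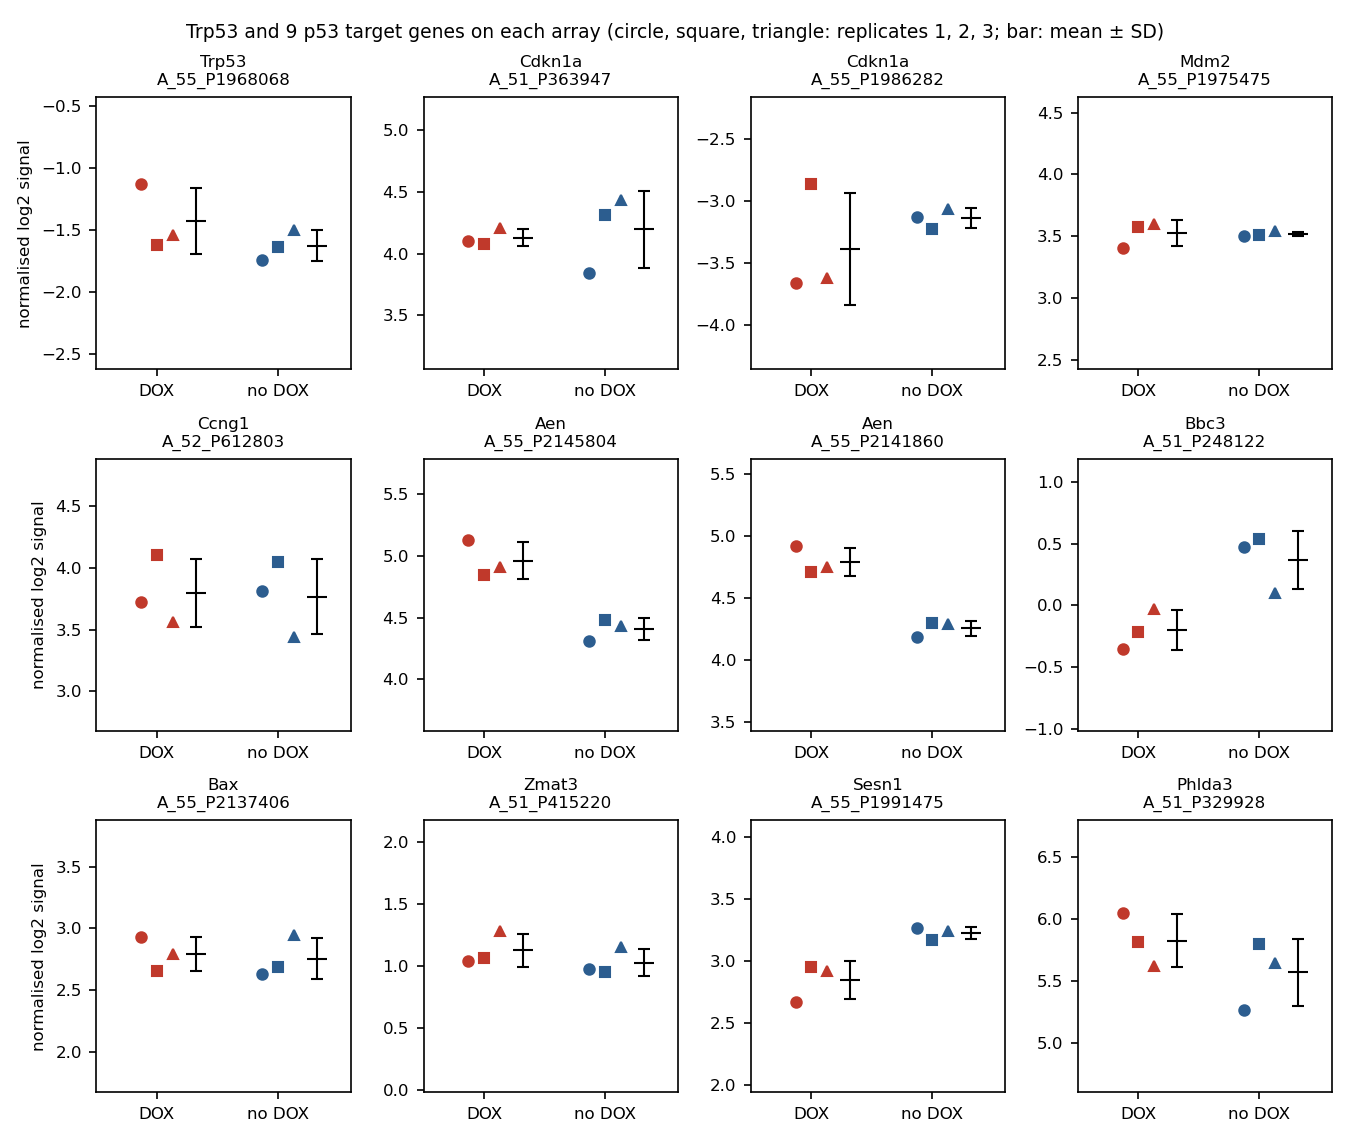
Normalised log2 signal of each of the 12 probes on the 3 DOX arrays (red, left) and the 3 no DOX arrays (blue, right), with the mean and SD of each group beside the points; each panel spans the same range of log2 units. The DOX points lie above all no DOX points in both Aen panels and below them in the Bbc3 and Sesn1 panels. In the other 8 the ranges of the groups overlap.

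Trp53 itself was read by 1 probe. Its signal was -1.12, -1.62 and -1.54 on DOX arrays 1 to 3, against -1.74, -1.64 and -1.50 on no DOX arrays 1 to 3. DOX replicate 1 was the highest of the 6 and the other 2 DOX arrays lay among those without DOX. The difference of 0.20 ± 0.16 (SE) did not pass (limma, adjusted p = 0.556, exact permutation p = 0.4). Its 95% interval ran from -0.18 to 0.58 on the log2 scale. With DOX replicate 1 left out the difference was 0.05. With slide row as a block it was 0.50, but no array without DOX shared the slide row of DOX replicates 2 and 3. That fit therefore sets DOX replicate 1 alone against the no DOX arrays, here and wherever slide row is named below.

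Mdm2, the ligase that marks p53 for degradation, was the least different of the 10 genes between the groups. Its signal was 3.40, 3.58 and 3.60 with DOX, against 3.50, 3.51 and 3.54 without. The no DOX arrays lay within the range of the DOX arrays, and their SD was 0.02 against 0.11 with DOX. The difference of 0.01 ± 0.10 (SE) had a 95% interval from 0.848-fold to 1.19-fold (limma, adjusted p = 0.980). Under 7 of the 21 alternative settings its sign turned, with values from -0.12 to 0.07 over all of them. Several of the 21, such as the value table, the filters and the threshold of 0.1, cannot change a log2 difference.

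Cdkn1a encodes p21, the inhibitor of cyclin-dependent kinases through which p53 halts the cell cycle, and it had 2 probes. The probe for NM_007669 was printed on 10 spots of every array, which allows the spread between spots to be set beside the spread between arrays. It gave 4.11, 4.08 and 4.21 with DOX, against 3.84, 4.31 and 4.43 without. All 3 DOX arrays thus lay inside the range of the no DOX arrays. The SD of the 10 spots lay between 0.03 and 0.04 log2 units on each array, while the SD between the arrays of a group was 0.07 with DOX and 0.31 without. With 1 array a mouse, the spread between arrays holds differences of labelling and hybridisation along with those between mice. The difference was -0.07 ± 0.17 (SE), with a 95% interval from 0.721-fold to 1.27-fold (limma, adjusted p = 0.879). It was -0.24 without no DOX replicate 1, the lowest array, and 0.05 without no DOX replicate 3, the highest. The second probe, for the transcript NM_001111099, was dim and gave -3.67, -2.86 and -3.62 with DOX, against -3.13, -3.22 and -3.06 without. DOX replicate 2 was the highest of the 6 on that probe and the other DOX arrays were the lowest. Its difference of -0.25 ± 0.23 (SE) did not pass (limma, adjusted p = 0.615). Leaving out DOX replicate 2 gave -0.51, leaving out DOX replicate 1 or 3 gave -0.10 and -0.13, and the value was -0.077 with normexp background correction and -0.53 with slide row as a block.

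**Figure D2:**
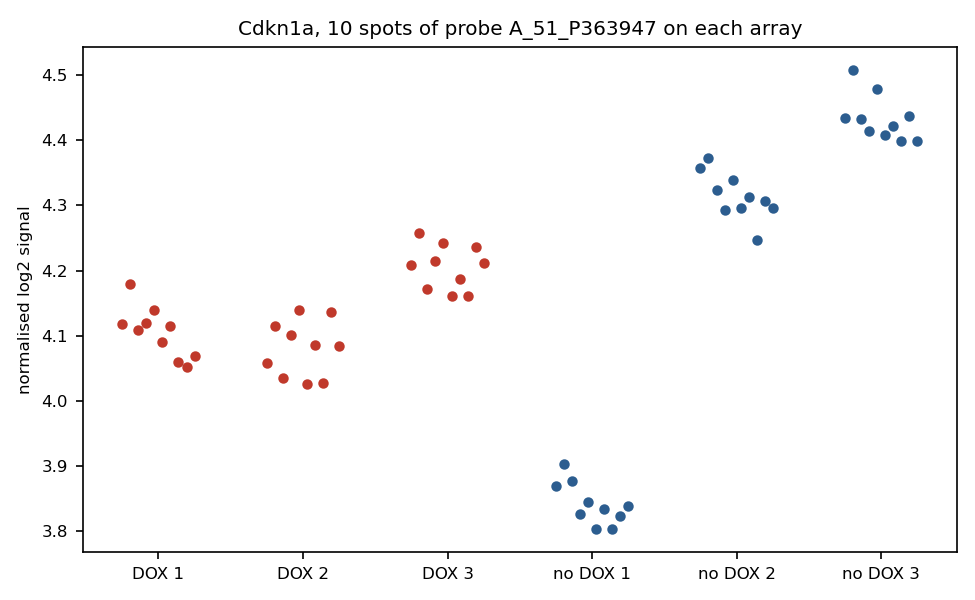
Normalised log2 signal of each of the 10 spots of the Cdkn1a probe A_51_P363947 on the 3 DOX arrays (red) and the 3 no DOX arrays (blue). Spots of an array lie close together (SD 0.03 to 0.04), no DOX replicate 1 is the lowest array and no DOX replicates 2 and 3 are the highest.

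Ccng1, which encodes cyclin G1, a partner of a phosphatase that acts on Mdm2, varied more between the arrays of a group than between groups. Its signal was 3.72, 4.10 and 3.56 with DOX, against 3.81, 4.04 and 3.44 without. In each group replicate 2 was the highest and replicate 3 the lowest. The difference of 0.03 ± 0.21 (SE) spanned 0.727-fold to 1.44-fold (limma, adjusted p = 0.957). The summed signal of 10 skeletal muscle markers, relative to the 75th percentile, had the same order within each group, at 2747, 3402 and 2525 with DOX and 2642, 3297 and 2314 without. Its part in the Ccng1 values was not tested.

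Among the genes of cell death, Aen was higher with DOX on every array, Bbc3 was lower on every array, and Bax was level within its spread. Aen encodes a nuclease induced by p53 that takes part in apoptosis. Its first probe gave 5.13, 4.84 and 4.91 with DOX, against 4.31, 4.48 and 4.43 without. The lowest DOX array stood above the highest no DOX array, and DOX replicate 1 was the highest. The difference of 0.55 ± 0.12 (SE), or 1.47-fold, missed the threshold (limma, adjusted p = 0.0991, exact permutation p = 0.1). The second probe, for the same accession, gave 4.92, 4.71 and 4.75 with DOX, against 4.19, 4.30 and 4.29 without. It was 1.45-fold higher (log2 0.54 ± 0.11, SE, limma, adjusted p = 0.0906). The 95% interval of its fold ran from 1.22 to 1.73. As both probes read 1 transcript in the same RNA, they are not separate evidence. Over the alternatives the adjusted p of the first probe lay between 0.0609 and 0.255 and that of the second between 0.0523 and 0.248, so neither passed 0.05 under any that gave a value.

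Bbc3 encodes PUMA, a BH3-only protein that triggers apoptosis by freeing and activating proteins such as Bax. Its signal was -0.36, -0.21 and -0.03 with DOX, against 0.47, 0.54 and 0.10 without. The nearest arrays were DOX replicate 3 and no DOX replicate 3, and the groups did not overlap. The difference of -0.57 ± 0.16 (SE), a level 0.675-fold that without DOX, missed the threshold (limma, adjusted p = 0.146, exact permutation p = 0.1). Its 95% interval ran from 0.520-fold to 0.876-fold, and the adjusted p over the alternatives lay between 0.0698 and 0.342. Bax, which forms pores in the outer mitochondrial membrane, gave 2.93, 2.66 and 2.80 with DOX, against 2.63, 2.69 and 2.94 without. The Bax groups overlapped, and the difference of 0.04 ± 0.13 (SE) had a 95% interval from 0.825-fold to 1.28-fold (limma, adjusted p = 0.911). Over the alternatives the Bax difference lay between -0.028 (without DOX replicate 1) and 0.17 (slide row as a block).

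Of the remaining targets, Sesn1 was lower with DOX on every array, and Zmat3 and Phlda3 had groups that overlapped. Sesn1 encodes a sestrin, a stress protein that restrains the growth kinase complex mTORC1. Its signal was 2.67, 2.95 and 2.92 with DOX, against 3.27, 3.17 and 3.24 without. DOX replicate 1 was the lowest, and the no DOX arrays lay close together (SD 0.05, against 0.15 with DOX). The difference of -0.38 ± 0.12 (SE), a level 0.770-fold that without DOX, missed the threshold (limma, adjusted p = 0.172, exact permutation p = 0.1). Its 95% interval ran from 0.635-fold to 0.933-fold, and the adjusted p over the alternatives lay between 0.103 and 0.361.

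Zmat3, a zinc finger protein that binds RNA and affects splicing, gave 1.04, 1.07 and 1.28 with DOX, against 0.97, 0.95 and 1.15 without. Replicate 3 was the highest of each group, and the difference was 0.10 ± 0.12 (SE), with a 95% interval from 0.881-fold to 1.31-fold (limma, adjusted p = 0.703). Without 1 array the Zmat3 difference lay between 0.026 (without DOX replicate 3) and 0.17 (without no DOX replicate 3), and it was 0.028 with normexp and 0.012 with slide row as a block. Phlda3, which competes with the kinase AKT for membrane lipids, gave 6.05, 5.81 and 5.62 with DOX, against 5.27, 5.80 and 5.65 without. DOX replicate 1 was the highest and no DOX replicate 1 the lowest of the 6. The difference of 0.26 ± 0.18 (SE) did not pass (limma, adjusted p = 0.493), and its 95% interval ran from 0.886-fold to 1.61-fold. It was 0.11 without no DOX replicate 1, 0.15 without DOX replicate 1 and 0.48 with slide row as a block. The summed signal of 10 keratinocyte markers was also highest in DOX replicate 1 (3273, with 2595 and 2664 on the other DOX arrays) and lowest in no DOX replicate 1 (2215, with 2476 and 2970 on the others). The mean log2 signal of the same markers was instead highest in no DOX replicate 3 (7.55, against 7.54 in DOX replicate 1). These markers include Perp, which is also among the p53 targets listed below. The part of the keratinocyte signal in the Phlda3 values was not tested.

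**Figure D3:**
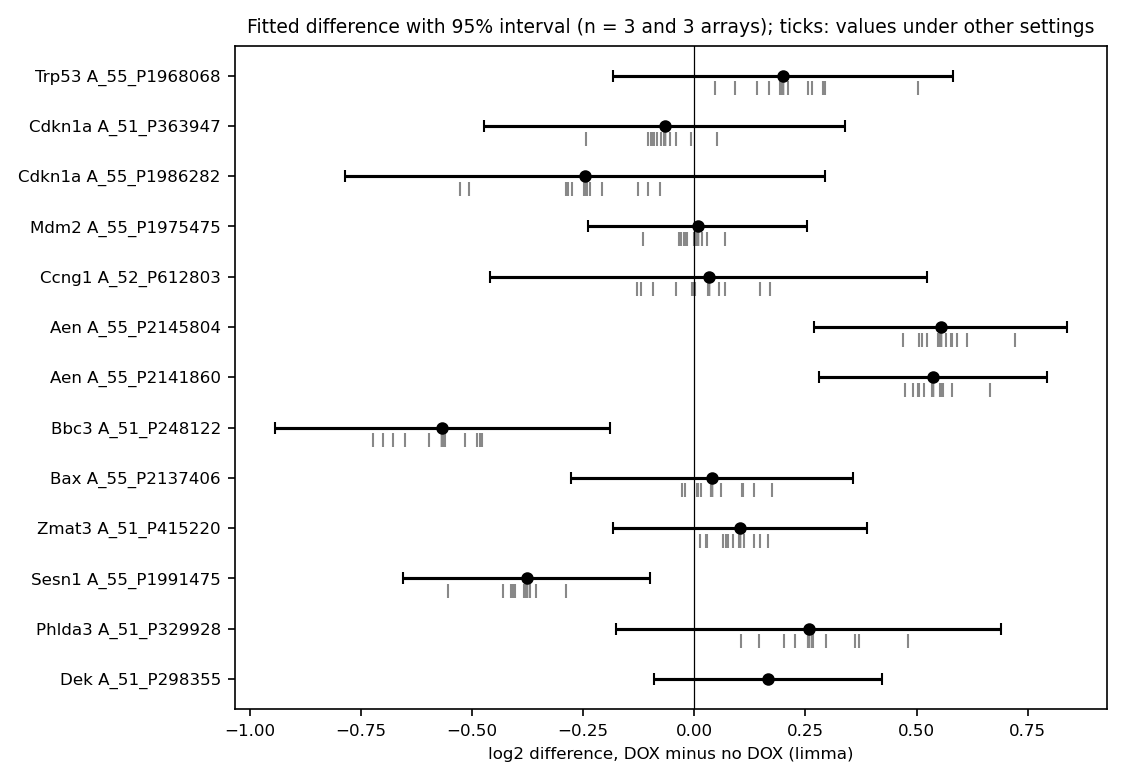
Log2 difference (DOX minus no DOX, horizontal axis) of each of the 12 probes and of Dek, with its 95% interval as a bar; grey ticks under each bar are the values under the alternative settings, which were not computed for Dek. The intervals of both Aen probes lie above 0 and those of Bbc3 and Sesn1 below it, before any adjustment over the 30920 probes, and the other 9 intervals include 0.

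The genes whose signal followed Aen most closely over the 6 arrays, among 15206 genes with a symbol, were Nup85, of the nuclear pore, Cacybp and Chordc1, an HSP90 co-chaperone, each with a Pearson correlation of 0.998. Those closest to Trp53 were Gtf2h1 (0.991), a subunit of a general transcription factor, Taf5l (0.987) and Dntt (0.985). These correlations over 6 arrays are a description, and they include the difference between the groups.

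Genes that act on p53 did not pass either. Of 20 regulators listed, 19 were tested, 0 rose and 0 fell (limma), with a median of -0.06. At an unadjusted p under 0.05 there were 3, where 18.6% of all genes and unnamed probes were under that value. Mdm4, which holds p53 inactive on DNA, was at -0.44 ± 0.14 (SE, adjusted p = 0.186), and the deacetylase gene Sirt1 was at -0.27 ± 0.10. Npm1, a nucleolar protein that can shield p53 from Mdm2, was at 0.32 ± 0.13, and the phosphatase gene Ppm1d at -0.26 ± 0.13. Of the p53 relatives, Trp63 was at -0.15 ± 0.11 and the brightest probe of Trp73 at 0.04 ± 0.13, while the other 2 tested probes of Trp73 lay at -0.84 and -0.72. The probe at -0.84 was near the floor, well above background on 1 of 3 DOX arrays and on 3 of 3 no DOX arrays. The Trp73 probes thus disagreed in sign, and none passed.

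A further 41 p53 targets were listed by role, and 39 were tested. Pcna and Gls2 rose and none fell, where 0.404% of all genes and unnamed probes passed, 0.278% higher and 0.126% lower. The DOX mean was the higher in 23 of the 39 and the lower in 16, with a median log2 difference of 0.02. At an unadjusted p under 0.05 there were 10, 6 higher and 4 lower, which is 25.6% where all genes and unnamed probes gave 18.6%. The groups did not overlap for 13 of the 39, where all gave 25.3%.

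Pcna encodes the sliding clamp of DNA replication, to which p21 also binds. Its signal was 3.90, 3.77 and 3.76 with DOX, against 3.03, 2.91 and 2.92 without. The groups stood apart by more than their own ranges, and Pcna was 1.81-fold higher (log2 0.86 ± 0.10, SE, limma, adjusted p = 0.0359). Pcna was the 1 gene called in the repair list of 8, whose median was -0.02. Gls2, a mitochondrial glutaminase, gave -0.67, -1.03 and -0.87 with DOX, against -1.99, -2.07 and -1.76 without. Gls2 was 2.12-fold higher (log2 1.08 ± 0.14, SE, limma, adjusted p = 0.0447) and was the 1 gene called in the list of 12 for metabolism and stress, whose median was 0.13. With normexp background correction the Gls2 difference was 0.62 (adjusted p = 0.0476). Neither call held when any 1 of the 6 arrays was left out (adjusted p from 0.0652 to 0.164 for Pcna and from 0.0718 to 0.170 for Gls2). The log2 differences then ran from 0.81 to 0.89 for Pcna and from 0.99 to 1.17 for Gls2.

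In the list of cell cycle arrest 9 of 10 genes were tested, 0 passed (limma), and the median was 0.02. Under an unadjusted p of 0.05 were 3, where all genes and unnamed probes gave 18.6%. Trp53inp1, a nuclear cofactor of p53, was at -0.67 ± 0.15 (SE, adjusted p = 0.110), and the stress sensor gene Gadd45a at -0.58 ± 0.15 (adjusted p = 0.132). Psrc1 was at -0.51 ± 0.14 and Sfn, which encodes 14-3-3 sigma, at 0.46 ± 0.22. In the list of cell death 10 of 11 were tested, 0 passed (limma), and the median was 0.09. Under an unadjusted p of 0.05 were 2, to be set against the same 18.6%. Pidd1, a death domain protein that activates caspase 2 complexes, was at 0.84 ± 0.19 (SE, adjusted p = 0.103). Pmaip1, the BH3-only protein NOXA, was at 0.94 ± 0.33, Siva1 at 0.20 ± 0.10 and Bid at 0.31 ± 0.22.

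**Figure D4:**
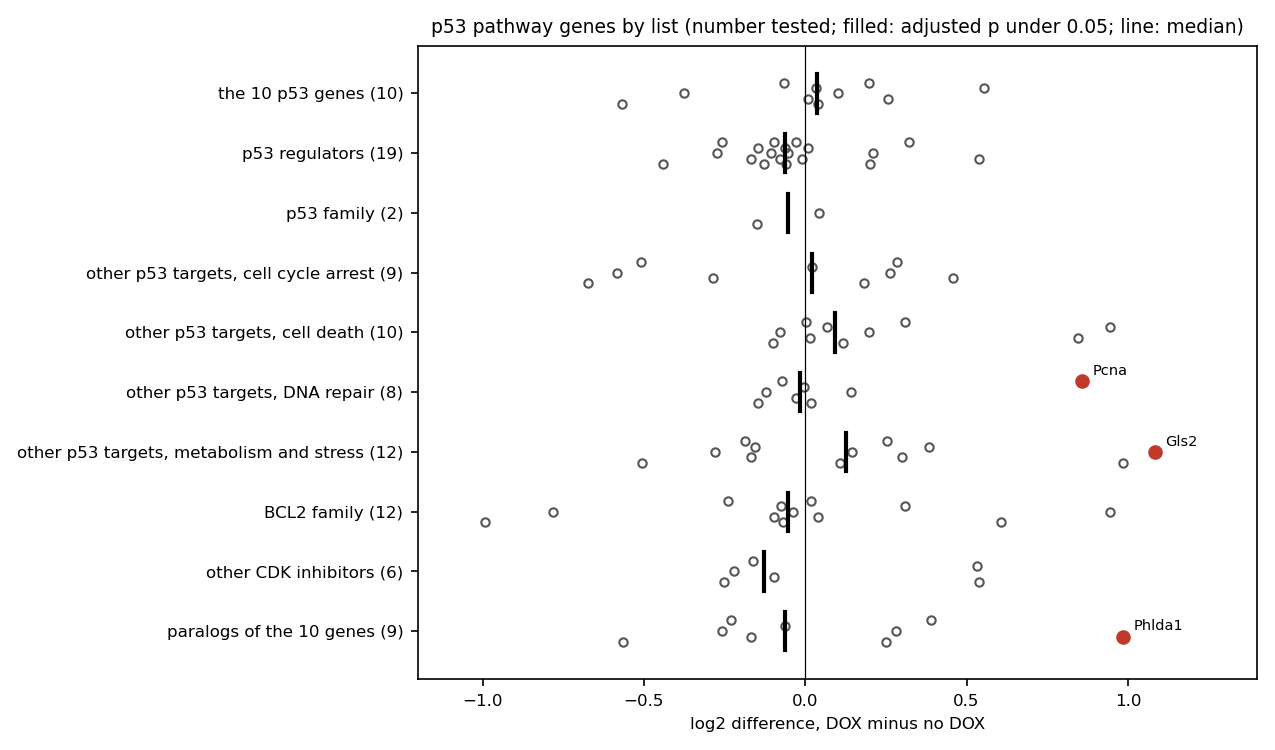
Log2 difference (DOX minus no DOX, horizontal axis) of each tested gene in the lists of the p53 pathway, with 1 probe a gene; filled points passed at an adjusted p under 0.05 and black lines are list medians. Of all genes shown, Pcna, Gls2 and Phlda1 passed, and the medians lie between -0.13 and 0.13.

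In the list of the BCL2 family, which leaves out Bbc3 and Bax, 12 of 13 genes were tested and 0 passed (limma). At an unadjusted p under 0.05 there were 2, where all genes and unnamed probes gave 18.6%, and the median was -0.05. Besides Pmaip1, the smallest p belonged to the BH3-only genes Bmf (-0.99 ± 0.36) and Hrk (-0.78 ± 0.35) and to Bok (0.61 ± 0.25). Of the 6 other inhibitors of cyclin-dependent kinases, all tested, 0 passed (limma), and the median was -0.13. Under an unadjusted p of 0.05 was 1, to be set against the same 18.6%. Cdkn1c, which encodes p57 and belongs to the family of Cdkn1a, was at 0.53 ± 0.17 (SE, adjusted p = 0.175) and Cdkn1b at -0.22 ± 0.14. Cdkn2a, whose product Arf inhibits Mdm2, was at 0.54 ± 0.34, and Cdkn2b at -0.25 ± 0.16.

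Relatives of the target genes were set beside them. Of 9 tested, 1 rose, 0 fell, and the median was -0.06, where 0.278% of all genes and unnamed probes rose and 0.126% fell. Phlda1, a relative of Phlda3, was 1.98-fold higher (log2 0.98 ± 0.13, SE, limma, adjusted p = 0.0461), at 3.72, 3.64 and 3.43 with DOX against 2.57, 2.49 and 2.77 without. Its call was lost when any 1 array was left out (adjusted p from 0.0599 to 0.174), and its log2 difference then ran from 0.92 to 1.06. The other sestrin genes, named after their values were seen, were at -0.17 ± 0.10 for Sesn2 and -0.57 ± 0.15 for Sesn3 (adjusted p = 0.440 and 0.143), neither of which passed.

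Dek, the gene meant to be induced, was at 2.41, 2.41 and 2.27 with DOX, against 2.30, 2.10 and 2.20 without, and its difference of 0.17 ± 0.11 (SE) did not pass (limma, adjusted p = 0.456). The labels do not say whether its probe reads the transgene. Between 56.0% and 58.3% of probes were well above background on each array and no spot was saturated. All 10 keratinocyte and all 10 skeletal muscle markers were well above background on every array. None of these markers passed. Of 6 leukocyte markers tested 1, Cd8a, fell (limma), and its probe was well above background on 0 of 3 DOX arrays and on 3 of 3 no DOX arrays. Of 6 salivary gland markers 4 were higher with DOX at an unadjusted p under 0.05, where 9.14% of all probes were. The other 2 had the lower mean with DOX, and 0 passed (limma). Their log2 differences ran from -0.98 to 6.51, with a median of 2.19. The mean log2 level of the 6 lay between 5.63 and 5.97 with DOX and between 2.56 and 4.52 without. The summed gland signal lay between 1691 and 1967 with DOX and between 1422 and 1559 without, and its part in the values of Aen, Bbc3 and Sesn1 was not tested. In whole tongue, fewer cells of a type and less RNA per cell cannot be told apart.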

How the data were processed

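Tongue RNA of 6 mice was labelled with Cy3 and hybridised to Agilent SurePrint G3 mouse arrays, 1 colour each, per the labels' protocols. Per the file headers, the intensity values in the scanner output are linear and were background-subtracted in Feature Extraction 11.5.1.1. The deposited value table equals that intensity times 1 factor per array (3.70 to 3.99), and no source states how those factors were set. The medians of its columns were 90.01, 97.5 and 93.7 for DOX replicates 1 to 3 and 102.5, 94.2 and 92.7 for no DOX replicates 1 to 3. All arrays lay on 1 slide with 1 scan. DOX replicates 2 and 3 lay in slide row 2 and the other 4 arrays in row 1. A block for slide row therefore leaves DOX replicate 1 as the only DOX array set against the no DOX arrays.

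Outlier-marked spots were left out (146 to 195 of 59305 per array), log2 signals of a probe's spots were averaged, and each array's 75th percentile over the 55681 probes was subtracted. Probes were named through RefSeq accessions of a GRCm38.p6 gene table, which gave 28331 probes 1 symbol. The array was annotated on mm9, so no probe or gene coordinates are given, and the promoter coordinates are those of the RefSeq windows. Probes well above background on all 3 arrays of a group were tested (30920) with limma 3.58.1 in R 4.3.3, without trend or robust settings, and adjusted p-values are Benjamini-Hochberg values over all of them. The fit was tested on simulated data.

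The 10 genes and all lists were chosen with earlier results of these data known. Every list gives its genes past the threshold, or up to 4 with the smallest p. No test was made of a list. Same-numbered mice did not deviate together (r = -0.11, -0.01 and 0.01), so numbers were not taken as pairs. Alternatives covered background correction, scaling, the value table, filters, variance models, weights, blocks, spot flags, the threshold and left-out arrays. Normexp used the median signals. The number of arrays limits the precision.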

Additional observations from a re-analysis of the deposited data

How the results depend on the processing

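No probe of Trp53 or the 9 targets had an adjusted p under 0.05 in any of 21 alternatives. Of these, the value table and the threshold of 0.1 return the adjusted p of the main fit by construction and are no separate check. At a threshold of 0.1, with all else kept, 2 passed, both of Aen, and Bbc3 was at 0.0698 with array weights. The Aen, Bbc3 and Sesn1 differences kept their sign in each alternative that gave a value (20 for the second Aen probe and the dim Cdkn1a probe, 21 for the others), as did those of Trp53, Zmat3, Phlda3 and the dim Cdkn1a probe. Several alternatives cannot change a log2 difference, so the sign was fixed there in advance. These are the value table, the filters, the trend and robust settings, the replicate block, 1 probe a gene and the threshold of 0.1. For Aen, Bbc3 and Sesn1 the sign also held without any 1 array. Without 1 array these differences ranged from 0.47 to 0.61 and 0.47 to 0.58 for the Aen probes, from -0.70 to -0.48 for Bbc3 and from -0.43 to -0.29 for Sesn1. Signs turned for differences near 0, and the cause was not tested. Mdm2 was at -0.034 with quantile normalization, -0.023 with the percentile over probes above background on all arrays, -0.020 with array weights and -0.12 with slide row as a block. Ccng1 was at -0.0011 with normexp, -0.0057 with quantile normalization, -0.093 with array weights and -0.041 with slide row as a block. Without 1 array Mdm2 ranged from -0.030 to 0.069, Ccng1 from -0.13 to 0.17, Bax from -0.028 to 0.13 and the bright Cdkn1a probe from -0.24 to 0.052.

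The count of 124 probes was 284 with normexp, 1 with no filter on dim probes, 224 with a trend, 569 with array weights, 882 at a threshold of 0.1 and 0 to 57 without 1 array. With the replicate number as a block, 0 probes passed, Aen was at adjusted p = 0.203 and 0.194, Bbc3 at 0.241 and Sesn1 at 0.247. With slide row as a block, chosen after seeing the data, 37 passed. The single calls of Pcna, Gls2 and Phlda1 became 0 with no filter, with the replicate number as a block and without any 1 array. Those of Gls2 and Phlda1 also became 0 with quantile normalization and with median centring, and that of Phlda1 with the percentile over probes above background on all arrays. The number of arrays, 3 in each group, limits what could be called.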
